A study of Mus musculus with 8 samples.

Results

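RNA recovered by anti-Flag immunoprecipitation from *Eif4a2* KO mouse embryonic stem cells (ESCs) that re-expressed Flag-tagged eIF4A2 was compared with RNA recovered in the same way from *Eif4a2* KO ESCs that carried only the empty vector (EV). These were 4 of the 8 libraries of the series, 2 labelled RIP Eif4a2flag and 2 labelled RIP EV. The members were all transcripts with at least 1 CPM (reads of a transcript per 1000000 reads on genes) in each of the 4 input libraries, 10754 of the 52550 genes in the count table. They were kept in 3 classes by their reads in the EV immunoprecipitates: 5493 had reads in both RIP EV libraries, 3300 in 1 of them, and 1961 in neither.

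Every group carried the same *Eif4a2* deletion. The cells were grown in ES-DMEM with 2i and LIF, and the groups differed in the piggyBac-borne transgene (EV or Eif4a2flag) and in the RNA taken (input, or RNA pulled down in 3 h by the M2 antibody to Flag, of which 5 µg was used). The study's methods describe the rescue lines as clones and the Eif4a2flag replicates as 2 clones; what separates the EV replicates is not stated in the sources used here, so the p-values below measure the spread between 2 libraries per group, which may be partly technical. EV cells carry no Flag-tagged eIF4A2, and the RIP EV libraries are thus the background of the pull-down. The 1 label field that disagreed with the rest called the second RIP Eif4a2flag library an Eif4a3 sample, whereas its title and genotype name Eif4a2flag. The libraries were QuantSeq 3′ libraries, in which 1 tag is read near the end of a polyadenylated transcript.

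eIF4A2 is a DEAD-box RNA helicase that works in the cap-binding complex eIF4F with the cap-binding protein eIF4E and the scaffold eIF4G. There it unwinds structure in the leader of mRNAs so that the small ribosomal subunit can load and scan. A close paralog, eIF4A1, also takes part in cap-dependent initiation, and the study cites proposals that the paralogs differ in other functions. RNAs that are not translated in the cytosol, such as those of mitochondria, nucleoli and chromatin, are not known as substrates of eIF4F.

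The guides that removed *Eif4a2* are shown because they fix what the counts of this gene can tell. Both listed target sequences matched the forward strand of chromosome 16 (GRCm38) exactly once, and CCC, the complement of a GGG protospacer adjacent motif on the other strand, stood directly before each (capitals). The coordinates are those of the bases in lower case.
Guide 1, chr16:23110095-23110114: CCCtcacattgttgttggtactc
Guide 2, chr16:23112521-23112540: CCCaaggcattttgtatgttagc
The first site lay in coding exon 5 of the main transcript and the second in a noncoding part of an exon of 1 annotated transcript, with 2406 bases between them. *Eif4a2* runs from 23107444 to 23114136 on the forward strand, so its 3′ end, where the tags are read, lies beyond the deleted stretch and the counts check neither the deletion nor the transgene. *Eif4a2* tags stood at 53.8 and 94.2 CPM in the EV inputs and at 86.8 and 69.1 CPM in the Eif4a2flag inputs. They stood at 56.7 and 126 CPM in RIP EV, against 76.7 and 47.4 CPM in RIP Eif4a2flag, overlapping groups (log2 fold change -0.83 ± 0.54 SE, edgeR adjusted p = 0.317). For the paralog *Eif4a1*, the levels were 214 and 341 CPM in RIP EV against 660 and 335 CPM in RIP Eif4a2flag, and the 2 groups overlapped as well (0.56 ± 0.38, edgeR adjusted p = 0.342).

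The 8 ESC markers examined (*Pou5f1*, *Sox2*, *Nanog*, *Esrrb*, *Klf4*, *Zfp42*, *Tfcp2l1* and *Dppa5a*) were all above 1 CPM in every input and summed to between 1965 and 2639 CPM. The 11 markers of other cells summed to between 7.98 and 14.7 CPM in the inputs, and of these only *Sox1*, a neural gene, passed 1 CPM in all of them. This sum depends on the markers taken. On a second list of 16 markers of differentiated cells, 3 passed 1 CPM in all inputs (*Eomes*, *Sox1* and *Nes*). *Eomes* alone had 20.9 CPM in EV input replicate 2. The RIP EV libraries held 2044853 and 3345151 gene reads, against 11206420 and 9976801 in RIP Eif4a2flag and 3204369 to 7269765 in the inputs. Reads outside annotated exons made up 45.8% and 29.7% of the RIP EV reads, 3.30% and 4.13% of the RIP Eif4a2flag reads, and 8.58% to 17.6% of the input reads. A further 33.5% and 39.9% of the RIP EV reads had more than 1 alignment and were not counted. These made up 27.9% and 27.0% of the RIP Eif4a2flag reads and 44.5% to 52.1% of the input reads. Which genes lost them was not examined, so the levels of any gene with near-identical copies are uncertain.

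The EV immunoprecipitates lacked reads for many transcripts that the other 6 libraries measured. RIP EV replicate 1 had 0 reads for 4668 of the 10754 transcripts (43.4%) and replicate 2 for 2554 (23.7%), whereas the RIP Eif4a2flag libraries had 0 reads for 33 and 56. At the depth of the smallest library, RIP EV replicate 1, thinning would be expected to leave 103 and 132 transcripts without reads in the RIP Eif4a2flag libraries and 2679 in RIP EV replicate 2. The cause of the difference was not tested. A transcript in a RIP EV library tended to have either no reads or many. Of the 1648 transcripts with input levels of 5 to 10 CPM, 1159 had 0 reads in RIP EV replicate 1 and only 129 had 1 to 9, while those above 0 had a median of 44 reads. At their input level, these transcripts would have had a median of 14.7 reads there. In the same set, 8 and 11 transcripts were at 0 in the RIP Eif4a2flag libraries.

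**Figure D1:**
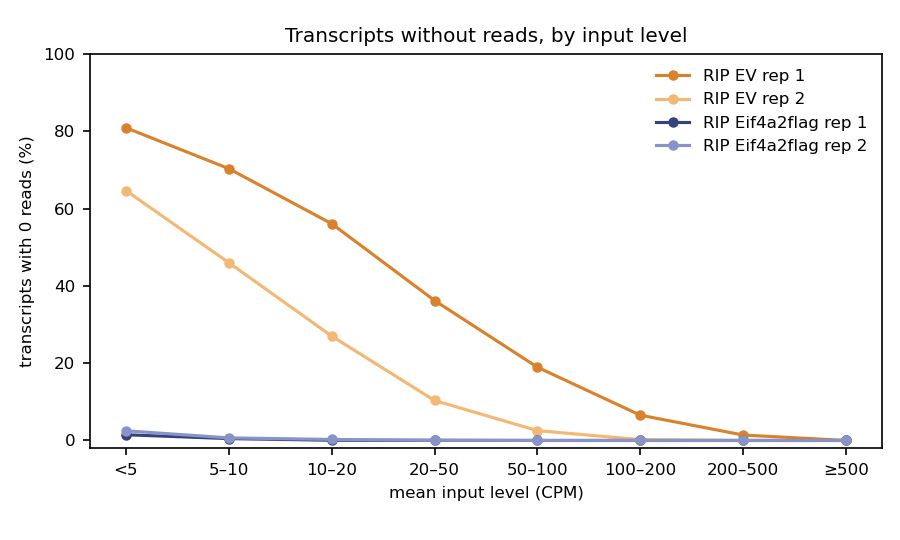
Share of transcripts with 0 reads (%, y axis) in bins of mean input level (CPM, x axis) for the 4 RIP libraries, 1 line per library. Both RIP EV lines (orange) start high, at 80.9% and 64.7% in the lowest bin, and fall with input level, whereas both RIP Eif4a2flag lines (blue) stay at or below 2.51%.

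The gaps of the RIP EV libraries coincided in part, with 1961 transcripts at 0 in both. Of the 4668 transcripts at 0 in replicate 1, 2707 had reads in replicate 2, with a median of 18.2 CPM and a 95th percentile of 73.2 CPM. Of the 2554 at 0 in replicate 2, 593 had reads in replicate 1, with a median of 23.0 CPM and a 95th percentile of 122 CPM. Counting error alone would put a transcript with 0 reads in both libraries below 0.557 CPM (3 reads over both), and the values just given show that, where only 1 library was at 0, its replicate often held far higher levels. Folds of transcripts at 0 in RIP EV are therefore given only as descriptions. Across all members, 95.2% of levels were within 2-fold of each other between the RIP Eif4a2flag libraries and 46.4% between the RIP EV libraries, on log2(CPM + 1). The biological coefficient of variation estimated within each group was 23.1% in RIP Eif4a2flag, 171% in RIP EV, and 30.1% and 28.1% in the EV and Eif4a2flag inputs.

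**Figure D2:**
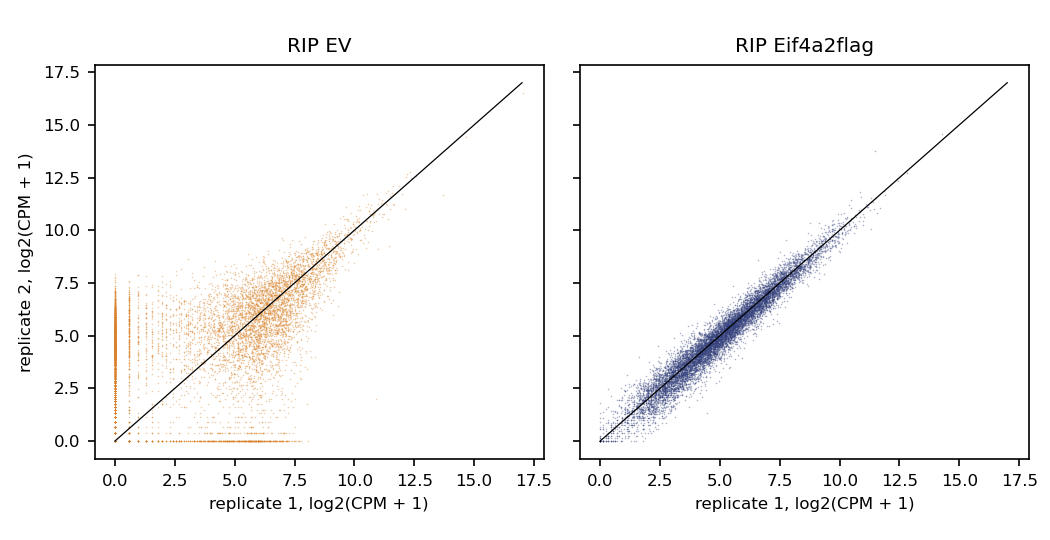
Level of each transcript in replicate 2 against replicate 1, both as log2(CPM + 1), for RIP EV (left) and RIP Eif4a2flag (right); each point is 1 of the 10754 transcripts and the line marks equal levels. RIP EV points form columns along both axes, 1 library at 0 and the other not, while RIP Eif4a2flag points lie along the line.

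Over all members, edgeR called more transcripts higher in RIP Eif4a2flag than lower. Among those with reads in both RIP EV libraries, it called more lower than higher. With 1 edgeR quasi-likelihood model of all 8 libraries, 2664 transcripts were called higher in RIP Eif4a2flag than in RIP EV at an adjusted p of 0.05 (24.8% of those tested) and 587 were called lower (5.46%). The calls higher lay mostly among transcripts without reads in RIP EV: 1827 of the 1961 with no reads in either library were called higher, 407 of the 3300 with reads in 1, and 430 of the 5493 with reads in both. The classes were formed on the RIP EV reads, so these counts follow in part from their definition. The calls lower lay almost wholly among those with reads in both, 581, against 6 with reads in 1. The groups did not overlap for 5581 transcripts with RIP Eif4a2flag on top (51.9%) and for 1296 with RIP EV on top (12.1%).

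How many of these calls a test gave depended on the spread it allowed RIP EV. The model shares 1 spread between groups of very unequal spread, and where each group had its own weight (limma voom, with a weight of 0.112 for RIP EV and 2.55 for RIP Eif4a2flag) no transcript was called higher and 9 were called lower (0% and 0.0837%), against 2134 and 307 before adjustment, at an unadjusted p under 0.05. edgeR on the 4 RIP libraries alone called 0 in either direction (0%), and its unadjusted p was under 0.05 for 2578 on the higher and 571 on the lower side. DESeq2 on these 4 called 806 higher (7.49%) and 523 lower (4.86%). Below, "called" means by edgeR on 8 libraries unless another test is named. The inputs themselves gave no calls between Eif4a2flag and EV by edgeR (0%); its unadjusted p was under 0.05 for 75 on the higher and 59 on the lower side, and no other tool was run.

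The transcripts that both RIP EV libraries measured allow sizes to be given. At least 10 reads in each RIP EV library were present for 4676 transcripts, a choice that favours transcripts high in RIP EV; these are called measured below. Of these, 338 were called higher (7.23%) and 576 lower (12.3%), the shares against which the counts of each group below are to be read, and each of these calls had both RIP Eif4a2flag libraries outside the range of both RIP EV libraries. These shares moved with mean input level: 0.77% were called higher and 16.5% lower in its lowest quartile, and 15.4% and 13.9% in its highest. DESeq2 on the 4 RIP libraries called 231 higher (4.94%) and 520 lower (11.1%), among them 221 and 484 of the calls above. The median log2 fold change of the 4676 was -0.24, with the middle of the distribution between -1.17 and 0.62 (quartiles). The scale carries a shift: the median over all 10754 was 0.64 with TMM factors and 0.91 with library size alone, and with library size alone the median of the 4676 was 0.05 and their calls were 472 higher and 424 lower.

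**Figure D3:**
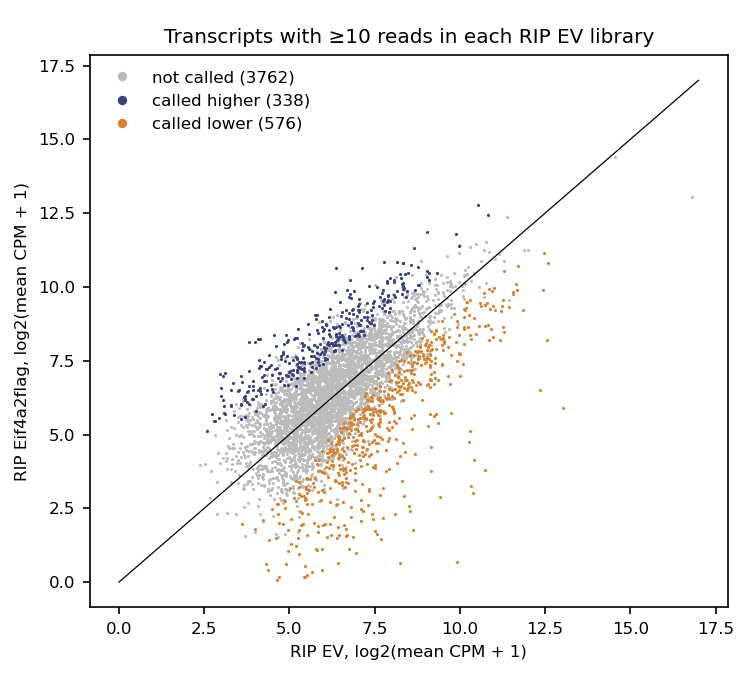
Mean level in RIP Eif4a2flag (y axis) against mean level in RIP EV (x axis), both as log2(CPM + 1), for the 4676 transcripts with at least 10 reads in each RIP EV library; blue points were called higher by edgeR (338), orange points lower (576), and the line marks equal levels. The blue points run as a band parallel to the line, while the orange points also reach down to levels near 0 in RIP Eif4a2flag.

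Large rises among these 4676 were those of the mRNAs of *Ndufa1*, *Ddt*, *Bub1b*, *Dppa5a*, *Aars*, *Arvcf* and *Ndufb6*, by 3.83 to 4.12 on the log2 scale (each with an edgeR adjusted p = 0.00662). *Ndufa1* (chromosome X), a subunit of respiratory complex I, stood at 9.78 and 16.4 CPM in RIP EV, against 338 and 221 CPM in RIP Eif4a2flag, with 174 to 342 CPM in the inputs. *Bub1b*, a kinase of the spindle checkpoint, had 20.1 and 11.7 CPM in RIP EV against 324 and 274 CPM in RIP Eif4a2flag. *Dppa5a*, an RNA-binding protein of pluripotent cells, had 10.3 and 19.4 CPM against 316 and 240 CPM. In each of these the groups were far apart, and the RIP EV libraries lay below every input. *Aars*, alanyl-tRNA synthetase, stood out in the other direction as well: its 309 and 292 CPM in RIP Eif4a2flag exceeded all 4 of its inputs, which ranged from 37.1 to 98.9 CPM, while RIP EV held 13.2 and 20.03 CPM. *Arvcf*, a catenin of cell junctions, likewise had 123 and 144 CPM in RIP Eif4a2flag, against 23.4 to 36.8 CPM in the inputs and 5.87 and 9.27 CPM in RIP EV. Leaving out any 1 RIP library kept these 7 log2 fold changes between 3.59 and 4.64. None of the 7 passed with 1 weight per group (limma voom adjusted p = 0.143 to 0.164) or with edgeR on 4 libraries (adjusted p = 0.065), while all passed with DESeq2 on 4.

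Subunits of the mitochondrial respiratory chain that are encoded in the nucleus and translated in the cytosol formed the list with the highest median. Of 59 expressed, 27 were called higher (45.8%, against 24.8% of all 10754) and 0 lower (against 5.46%). Of the 43 with at least 10 reads in each RIP EV library, 21 were called higher (48.8%, against 7.23% of all 4676) and 0 lower. In 37 of the 43, both RIP Eif4a2flag libraries lay above both RIP EV libraries (34.3% of all 4676 did). The median log2 fold change of the 43 was 1.41, against -0.24 for all 4676. Their median input levels were 254 CPM in EV and 226 CPM in Eif4a2flag. In the quartile of highest input level (160 CPM and more), 15.4% of all measured transcripts were called higher. Cytochrome oxidase, complex IV, had the highest median of the complexes, 2.27, with 7 of 8 measured subunits called higher (87.5%); complex III had 4 of 7 (57.1%) and complex I 9 of 26 (34.6%). *Ndufb6* of complex I had 7.34 and 7.17 CPM in RIP EV against 144 and 107 CPM in RIP Eif4a2flag (3.83 ± 0.38, edgeR adjusted p = 0.00662). The lowest member, *Ndufa12*, also of complex I, had 38.1 and 90.9 CPM in RIP EV against 42.5 and 45.7 CPM in RIP Eif4a2flag, with overlapping groups. DESeq2 on 4 libraries called 14 of the 43 higher, limma voom with 1 weight per group and edgeR on 4 called 0, and the count fell to 10 or 8 without either RIP Eif4a2flag library and was 25 or 32 without either RIP EV library.

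The list of large chromatin regulators, which also holds the large ubiquitin ligase *Huwe1*, had a median of 1.07. Of its 22 measured members, 7 were called higher (31.8%, against 7.23% of all measured) and 1 lower. Those called higher were *Chd8*, *Setd1a*, *Jarid2*, *Arid1a*, *Trrap*, *Huwe1* and *Nsd1*. *Nsd1*, a histone H3 lysine methyltransferase, was the highest, with 13.2 and 97.8 CPM in RIP EV against 448 and 608 CPM in RIP Eif4a2flag, above its inputs of 95.1 to 150 CPM (2.99 ± 0.88, edgeR adjusted p = 0.043). Its RIP EV libraries differed from each other more than most. *Setd1b*, of another lysine methyltransferase complex, was the only one called lower, from 306 and 436 CPM to 155 and 131 CPM (-1.65 ± 0.31, edgeR adjusted p = 0.00857). In this list DESeq2 on 4 libraries called 4 higher and 1 lower, and limma voom and edgeR on 4 called 0. The calls higher were 3 without either RIP Eif4a2flag library, 12 without RIP EV replicate 1 and 14 without RIP EV replicate 2.

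Of the 576 called lower, 507 came from protein-coding genes, but the largest falls were among RNAs that are not translated in the cytosol. The list of RNAs encoded by the mitochondrial genome held no expressed tRNA. All 9 of its expressed members were called lower, each with both RIP Eif4a2flag libraries below both RIP EV libraries, and their median was -6.38. Their inputs differed in the same direction (median -1.14, 0 called), and with the input difference subtracted the median was -5.44. The 3 expressed mitochondrial tRNAs had no reads in either RIP EV library and were not called. *mt-Rnr2*, the large mitochondrial ribosomal RNA, had 1707 and 989 CPM in RIP EV against 4.28 and 10.0 CPM in RIP Eif4a2flag (-7.84 ± 0.89, edgeR adjusted p = 0.00662). The smallest change was that of *mt-Nd2*, a complex I subunit, with 205 and 194 CPM against 4.02 and 9.42 CPM (-5.16 ± 0.60, edgeR adjusted p = 0.00662). The direction set these apart from the complex I subunits of nuclear origin described above, and the inputs held 215 to 899 CPM of *mt-Nd2*, so that RIP Eif4a2flag lay far below all inputs and RIP EV below its own EV inputs (388 and 899 CPM). All 9 were called lower with every RIP library left out in turn and with DESeq2 on 4 libraries. With 1 weight per group limma voom called 1 of them, *mt-Nd1* (927 and 1779 CPM in RIP EV, 13.8 and 18.9 CPM in RIP Eif4a2flag).

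Small nucleolar RNAs (snoRNAs) and the scaRNAs of Cajal bodies guide the chemical modification of ribosomal and spliceosomal RNA in the nucleus. Of 50 expressed genes of these classes, 12 were called lower (24%, against 5.46% of all 10754) and 2 higher (4%, against 24.8%). The median level of the 50 was 4.37 CPM in RIP EV, 0.543 CPM in RIP Eif4a2flag and 7.22 CPM in the inputs. The 10 measured were all called lower (median -5.46), but they were measured because RIP EV held many of their reads (median 45.1 CPM, against 18.2 and 15.4 CPM in the EV and Eif4a2flag inputs), so their direction is not independent of that choice. Whether tags counted on these genes came from the small RNAs or from longer transcripts across them cannot be told apart in counts per gene. A sequence of each family is shown, taken from the GENCODE transcripts of GRCm38, since these short noncoding RNAs were among the largest falls. In *Snord49b* capitals mark the C box letters TGATGA near the start and the D box letters CTGA near the end, and in *Snora17* the ACA near the end; only the transcript's own strand was searched.
Snord49b, chr11:62603079-62603150, forward strand: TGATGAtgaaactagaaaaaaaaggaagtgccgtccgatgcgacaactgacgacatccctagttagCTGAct
Snora17, chr2:26639190-26639321, reverse strand: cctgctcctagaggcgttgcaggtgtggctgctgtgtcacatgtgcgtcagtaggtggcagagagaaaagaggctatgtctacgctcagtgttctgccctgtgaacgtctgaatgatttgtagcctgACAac
Of 1507 annotated snoRNA transcripts, 20.3% hold TGATGA within the first 20 bases together with CTGA within the last 16, and 46.8% hold ACA within the last 8. *Snord49b* had 30.3 and 91.2 CPM in RIP EV against 0.357 and 0.301 CPM in RIP Eif4a2flag (-7.70 ± 1.20, edgeR adjusted p = 0.00662). *Snora17* had 112 and 58.9 CPM in RIP EV against 0.535 and 0.601 CPM in RIP Eif4a2flag (-7.46 ± 0.92, edgeR adjusted p = 0.00662, limma voom with 1 weight per group adjusted p = 0.0311). *Snord35a*, which lies within *Rpl13a*, had 69.0 and 20.9 CPM against 0.0892 and 0.301 CPM. In all 3 the groups were apart by more than the RIP EV libraries differed, and RIP EV held more than the inputs for *Snora17* (5.36 to 18.6 CPM) and *Snord35a* (1.65 to 4.82 CPM).

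The other large falls were mostly genes without a name of their own. *Gm17300*, a lincRNA, had 514 and 91.5 CPM in RIP EV against 0.535 and 0.601 CPM in RIP Eif4a2flag (-9.30 ± 1.16, edgeR adjusted p = 0.00662). *Gm47284* (annotated as a miRNA gene), *Gm26448* (a snoRNA) and *Gm42783* (an unclassified locus) had 12.9 to 70.4 CPM in RIP EV, and each had reads in only 1 of the RIP Eif4a2flag libraries, 1 to 3 of them. The first by size, *Gm9625*, a processed pseudogene, rested on 1 library: it had 1913 and 2.99 CPM in RIP EV, and its log2 fold change of -10.88 ± 2.87 (edgeR adjusted p = 0.0294) became -2.51 without RIP EV replicate 1.

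Long noncoding RNAs that stay in the nucleus were lower where RIP EV could be measured, in 4 of 9 expressed members, a choice that again favours high RIP EV levels. *Meg3*, *Rian* and *Mirg*, which come from the imprinted *Dlk1-Dio3* region on chromosome 12, and *Malat1*, of nuclear speckles, were the 4 members of this list with at least 10 reads in each RIP EV library, and all were called lower, with a median of -5.05. *Meg3* had 5128 and 6929 CPM in RIP EV, far above the 575 to 1082 CPM of its inputs, and 241 and 346 CPM in RIP Eif4a2flag (-4.63 ± 0.36, edgeR adjusted p = 0.00662). *Rian* had 130 and 44.2 CPM against 2.14 and 1.90 CPM (-5.71 ± 0.79). *Malat1* had 1097 and 1408 CPM against 19.5 and 48.4 CPM (-5.47 ± 0.87, edgeR adjusted p = 0.00666). The member without reads in RIP EV went the other way in the count of calls: *Kcnq1ot1* had 0 reads in both RIP EV libraries and was called higher, although its 2.77 and 2.31 CPM in RIP Eif4a2flag lay below all of its inputs (5.62 to 16.5 CPM).

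Of the replication-dependent histones, whose mRNAs end in a stem-loop in place of a poly(A) tail, the median level of all 22 expressed members was 22.3 CPM in RIP EV, 6.82 CPM in RIP Eif4a2flag and 4.13 CPM in the inputs. Of the 11 measured, 6 were called lower and 0 higher (median -3.60); these had been kept for their RIP EV reads (median 74.2 CPM, against 7.47 and 3.45 CPM in the EV and Eif4a2flag inputs), so the direction is not independent of that choice. *Hist1h1d*, a linker histone, had 111 and 38.0 CPM in RIP EV against 1.78 and 2.21 CPM in RIP Eif4a2flag, close to its inputs of 1.24 to 4.68 CPM (-5.49 ± 1.07, edgeR adjusted p = 0.00977). *Hist1h4b*, a core histone, had 29.8 and 19.1 CPM against 16.4 and 20.8 CPM, with overlapping groups. The calls lower numbered 1 or 2 without either RIP Eif4a2flag library and 10 or 8 without either RIP EV library. *Hist3h2a* had 0 reads in RIP EV, against 90.1 and 50.6 CPM in RIP Eif4a2flag.

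Genes that carry snoRNAs in their introns were examined next. Noncoding hosts had 7 of 13 measured members called lower (53.8%, against 12.3% of all measured) and 0 higher, with a median of -1.41. Without either RIP Eif4a2flag library 3 were called lower, and without RIP EV replicate 2, 7 were called lower and 2 higher. *Snhg12* was the lowest, with 695 and 562 CPM in RIP EV against 47.8 and 52.6 CPM in RIP Eif4a2flag, and its inputs of 47.8 to 83.0 CPM were near the latter (-3.93 ± 0.40, edgeR adjusted p = 0.00662). *Snhg6* was the highest, with 17.1 and 37.4 CPM against 81.8 and 32.8 CPM, and its groups overlapped. Among all 4676 measured transcripts, 140 came from genes with an annotated snoRNA on the same strand within their span, a set formed after the values had been seen. Of these, 44 were called lower and 12 higher, with a median of -0.71; of the other 4536, 532 were called lower and 326 higher, with a median of -0.22. No test was made between these sets.

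The 9 transcripts called lower with 1 weight per group (limma voom) were *Gm17300*, *Snora17*, *mt-Nd1*, *Gm37357*, *Hspa8*, *Taf1d*, *Snhg11*, *Rps12* and *Rpl7a*, and all 9 were also called lower by edgeR. The last 5 hold between 2 and 8 annotated snoRNAs within their spans. *Taf1d*, a subunit of a polymerase I initiation factor with 8 snoRNAs, had 4528 and 5893 CPM in RIP EV, 65.7 and 114 CPM in RIP Eif4a2flag, and 320 to 492 CPM in the inputs (-6.13 ± 0.41, edgeR adjusted p = 0.00662, limma voom adjusted p = 0.0232). *Hspa8*, a chaperone of the heat shock 70 family, had 176 and 200 CPM in RIP EV, 2.05 and 2.21 CPM in RIP Eif4a2flag, and 6.49 to 15.0 CPM in the inputs (-6.73 ± 0.64, limma voom adjusted p = 0.0232). *Snhg11* had 257 and 375 CPM against 8.57 and 11.03 CPM (-5.28 ± 0.43, limma voom adjusted p = 0.0491). *Taf1d* and *Hspa8* had RIP EV levels well above input and RIP EV replicates near each other, whereas *mt-Nd1* in RIP EV lay below its EV inputs (2106 and 4078 CPM) and the RIP EV levels of *Gm17300* were far apart. *Hspa8*, *Rps12* and *Rpl7a* have near-identical processed copies in the genome, and reads with more than 1 alignment were not counted, so their levels are uncertain. Whether the tags of these genes came from mRNA, from introns or from snoRNAs cannot be told apart in counts per gene.

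**Figure D4:**
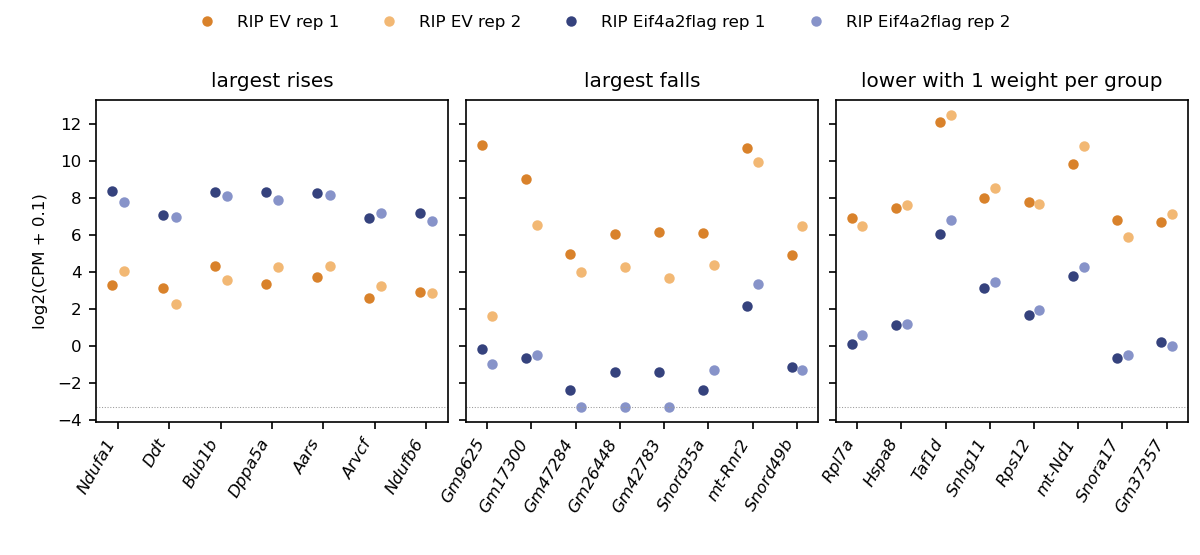
Level of single transcripts in each of the 4 RIP libraries as log2(CPM + 0.1); orange points are RIP EV, blue points RIP Eif4a2flag, 1 point per library, and the dotted line marks 0 reads. The left panel holds the 7 rises described above and the middle panel the 8 largest falls among transcripts with at least 10 reads in each RIP EV library, and the right panel the other 8 called lower by limma voom; in the middle panel the RIP EV points of *Gm9625* are the most distant from each other.

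Ribosomal proteins of the cytosol were mixed. Of 52 measured, 17 were called lower (32.7%, against 12.3% of all measured) and 4 higher (7.69%), with a median of -0.79 (-0.50 with library size alone and -0.29 without RIP EV replicate 2). The calls lower were 8 and 7 without either RIP Eif4a2flag library and 24 and 21 without either RIP EV library. *Rpl7a*, of the large subunit, was the lowest, with 122 and 90.9 CPM in RIP EV against 0.982 and 1.40 CPM in RIP Eif4a2flag (-6.74 ± 0.81, edgeR adjusted p = 0.00662, limma voom adjusted p = 0.0311). *Rps12*, of the small subunit, had 221 and 209 CPM against 3.12 and 3.81 CPM. *Rpl10l*, an intronless retrocopy of a large-subunit gene, was the highest, with 88.03 and 67.0 CPM against 568 and 202 CPM (2.02 ± 0.52, edgeR adjusted p = 0.0277). Split by annotated snoRNAs, the 20 ribosomal protein genes that hold one had 11 called lower and 1 higher (median -1.23), and the 32 that hold none had 6 lower and 3 higher (median -0.35). *Rps29* was 1 of 2 members with no reads in RIP EV, and its 10.98 and 7.42 CPM in RIP Eif4a2flag were close to its inputs (6.60 to 11.9 CPM).

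Lists of translation factors gave few calls, in both directions, at shares near those of all measured transcripts. Of the 12 measured eIF4F subunits and partners, 1 was called higher (8.33%, against 7.23% of all measured) and 1 lower (8.33%, against 12.3%). The median of the 12 was 0.41. The median was -0.02 without RIP EV replicate 1 (3 called higher and 3 lower) and 1.02 without RIP EV replicate 2 (8 higher and 1 lower). *Pabpc1*, the poly(A)-binding protein that contacts eIF4G, was the one called higher. *Eif4ebp1*, which encodes an inhibitor of eIF4E, had 25.4 and 124 CPM in RIP EV against 321 and 295 CPM in RIP Eif4a2flag, apart but not called (1.78 ± 0.69, edgeR adjusted p = 0.106). Its relative *Eif4ebp2* was called lower, from 206 and 177 CPM to 119 and 120 CPM (-0.96 ± 0.29, edgeR adjusted p = 0.0472). Of 29 other initiation and elongation factors measured, 5 were called lower (17.2%, against 12.3% of all measured) and 1 higher (3.45%, against 7.23%). The median of the 29 was -0.26 (0.01 with library size alone). Leaving out each RIP library gave 2 to 8 called lower and 0 to 5 higher. *Eif2s2*, the beta subunit of eIF2, fell from 2627 and 2388 CPM to 317 and 393 CPM (-3.10 ± 0.39, edgeR adjusted p = 0.00662), with inputs of 686 to 1317 CPM between the groups. *Eif2s1*, the alpha subunit, had 6.36 and 25.4 CPM against 70.7 and 56.2 CPM and was not called (1.72 ± 0.72, edgeR adjusted p = 0.129).

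Nonsense-mediated decay and CCR4-NOT factors had 5 of 18 measured members called lower (27.8%, against 12.3% of all measured) and 1 higher, with a median of -0.48 (0.04 without RIP EV replicate 1 and -0.63 without RIP EV replicate 2). The calls lower were 0 and 2 without either RIP Eif4a2flag library and 7 without either RIP EV library. *Upf3b*, of the exon junction arm of the decay pathway, fell from 693 and 921 CPM to 100 and 151 CPM (-2.95 ± 0.51, edgeR adjusted p = 0.00725). *Upf1*, the helicase at its centre, had 57.7 and 14.3 CPM in RIP EV against 158 and 161 CPM in RIP Eif4a2flag and was not called (1.85 ± 0.78, edgeR adjusted p = 0.129). *Smg8* had no reads in RIP EV, against 35.4 and 13.0 CPM in RIP Eif4a2flag. Of the 10 measured genes of mTOR complexes and their regulators, 1 was called lower and 0 higher (median -0.32, -0.03 with library size alone and 0.09 without RIP EV replicate 2, where 2 were called in each direction; without RIP EV replicate 1, 4 were called lower), and 10 of the 20 expressed lacked reads in at least 1 RIP EV library. *Mtor* itself had 0 reads and 1 read in RIP EV, against 125 and 161 CPM in RIP Eif4a2flag, above its inputs of 43.1 to 55.9 CPM (called higher, edgeR adjusted p = 0.00662). *Tsc2*, the subunit of an mTOR inhibitor, had 18.6 and 22.4 CPM against 61.2 and 50.3 CPM and was not called (1.16 ± 0.60, edgeR adjusted p = 0.215). *Akt1s1*, an inhibitory subunit of mTOR complex 1, was called lower, from 105 and 66.1 CPM to 30.7 and 27.6 CPM (-1.84 ± 0.53, edgeR adjusted p = 0.0418). *Wdr24*, of an activator of mTOR complex 1, had no reads in RIP EV, against 21.5 and 20.6 CPM in RIP Eif4a2flag.

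Pluripotency factors went both ways. Of 17 measured, 4 were called higher (23.5%, against 7.23% of all measured) and 3 lower (17.6%, against 12.3%), with a median of 0.57. Leaving out each RIP library gave medians of 0.33 to 1.17, and without RIP EV replicate 2 the calls were 9 higher and 4 lower, while 0 were lower without either RIP Eif4a2flag library. *Esrrb*, an orphan nuclear receptor of the naive state, had 79.2 and 146 CPM in RIP EV against 595 and 603 CPM in RIP Eif4a2flag (2.14 ± 0.36, edgeR adjusted p = 0.00689). *Klf2*, of the same network, had 245 and 148 CPM against 765 and 539 CPM (1.44 ± 0.38, edgeR adjusted p = 0.0288). *Prdm14* was the lowest, from 22.5 and 34.4 CPM to 7.23 and 4.21 CPM (-2.59 ± 0.74, edgeR adjusted p = 0.0397). *Klf4* rested on unequal replicates, with 131 and 100 CPM in RIP EV against 218 and 745 CPM in RIP Eif4a2flag (1.79 ± 0.73, edgeR adjusted p = 0.121). *Nanog*, *Sox2* and *Tfcp2l1* had overlapping groups: *Nanog* had 64.6 and 213 CPM in RIP EV against 195 and 137 CPM in RIP Eif4a2flag (-0.01 ± 0.54, edgeR adjusted p = 0.994), and its log2 fold change was 1.17 without RIP EV replicate 2. *Sall4* and *Tbx3* were above RIP EV in both libraries, by 0.44 ± 0.31 and 0.57 ± 0.36, and *Stat3*, the effector of LIF, was below, by -1.22 ± 0.43, none of them called (edgeR adjusted p = 0.363, 0.305 and 0.0768). *Pou5f1*, which encodes OCT4, had no reads in RIP EV, against 9.82 and 31.4 CPM in RIP Eif4a2flag, with inputs of 5.78 to 19.7 CPM. *Spen*, a large nuclear repressor, had 0 and 30.8 CPM in RIP EV against 263 and 490 CPM in RIP Eif4a2flag, far above its inputs of 16.2 to 40.7 CPM; its log2 fold change of 4.34 ± 1.57 did not pass (edgeR adjusted p = 0.0853), and it was 3.37 without RIP EV replicate 1, so the direction did not rest on the library at 0.

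Glycolytic and stress genes gave few calls with all 8 libraries where RIP EV could be measured. Of 9 glycolytic enzymes measured, 0 were called by edgeR in either direction, 1 was called higher by DESeq2 on 4 libraries, and the median was 0.62. Without either RIP EV library edgeR called 4 higher and 1 lower, and leaving out each RIP library gave medians of 0.89 to 1.05. *Pfkp*, a phosphofructokinase, had 159 and 165 CPM in RIP EV against 437 and 568 CPM in RIP Eif4a2flag (1.36 ± 0.44, edgeR adjusted p = 0.0611). *Eno1*, an enolase, had 30.3 and 43.6 CPM against 12.8 and 3.41 CPM (-2.48 ± 0.78, edgeR adjusted p = 0.0543). Of the 15 expressed genes of the integrated stress response, 5 were measured in both RIP EV libraries and 0 of these were called by edgeR or by DESeq2 on 4 libraries, with a median of 0.60. Without RIP EV replicate 1 the median was 0.03, with 1 called in each direction, and without RIP EV replicate 2 it was 1.11, with 2 called higher and 1 lower. In the whole list 5 of the 15 expressed were called higher (33.3%, against 24.8% of all 10754). All 5 were among members that lacked reads in at least 1 RIP EV library, where calls higher follow in part from the lack of reads.

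**Figure D5:**
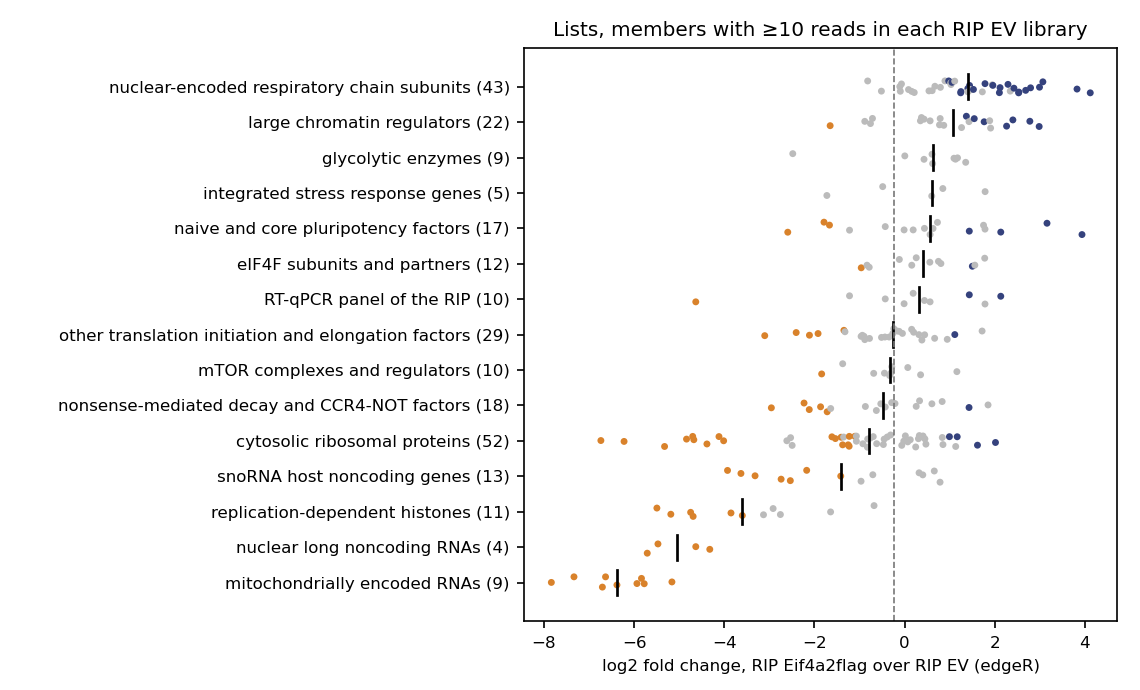
Log2 fold change of RIP Eif4a2flag over RIP EV (edgeR, x axis) for the members of 15 lists with at least 10 reads in each RIP EV library, 1 point per transcript and the number of members in parentheses; blue was called higher, orange lower, grey neither, black bars are medians and the dashed line is the median of all 4676. Mitochondrially encoded RNAs (median -6.38) stand at one end and nuclear-encoded respiratory chain subunits (1.41) at the other.

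The 1961 transcripts without reads in RIP EV were not strongly expressed as a class. Their median input level was 5.55 CPM, against 22.6 CPM for all 10754, and their median in RIP Eif4a2flag was 7.40 CPM (quartiles 3.68 and 14.3, highest 135). *March9*, a membrane E3 ubiquitin ligase, was the highest, with 127 and 143 CPM in RIP Eif4a2flag, 59.3 to 81.8 CPM in the inputs, and 0 reads in RIP EV. *Gdf15* and *Ddit4*, both induced by cellular stress, had 139 and 111 CPM and 124 and 95.8 CPM. *Xpo6*, an exportin, had 100 and 107 CPM, *Sertad3* 134 and 67.7 CPM, *Psap*, the precursor of the saposins, 102 and 97.6 CPM, *Kif26a* 64.4 and 126 CPM, and *Gprasp1* 94.8 and 88.5 CPM. Against the counting floor of 3 reads over both RIP EV libraries, these 8 would be at least 165-fold to at least 243-fold higher, a bound that covers counting error only and that the gaps described above do not respect.

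A call higher in this class did not need a high level in RIP Eif4a2flag. Of the 1961, both RIP Eif4a2flag libraries were above both Eif4a2flag inputs for 782 and below both for 359, and 263 of the latter were still called higher. Of the 5493 with reads in both RIP EV libraries, 2523 were above and 1140 below their inputs in the same way. Among those not called was *A330084C13Rik*, an antisense transcript with the second highest input level of the class (38.3 to 149 CPM), which had 0.625 and 0.601 CPM in RIP Eif4a2flag, near the counting floor of RIP EV (edgeR adjusted p = 0.0762). *Tmem126a*, another of the 5 with the highest inputs, had 39.5 and 49.1 CPM in RIP Eif4a2flag and 53.5 to 87.7 CPM in the inputs. *Eomes*, *Sox1* and *Nes*, the 3 expressed markers of differentiated cells, all fell in this class and were all called higher; *Eomes* had 8.12 and 16.9 CPM in RIP Eif4a2flag and 2.48 to 20.9 CPM in the inputs.

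Since the RNA of the cell lines themselves could differ, the RIP difference was also taken less the input difference in the same model. This interaction called 2068 transcripts higher (19.2%) and 226 lower (2.1%). Among the 4676 it called 102 higher (2.18%) and 226 lower (4.83%), which included 100 of the 338 and 222 of the 576 calls of the RIP contrast. *Ndufa1* stood at 4.82 and *Aars* at 2.97 on this scale (edgeR adjusted p = 0.0176 and 0.0183), *mt-Rnr2* at -6.45 and *Snora17* at -8.22 (0.0176 for both). *Gdf15* and *Ddit4* were higher in the Eif4a2flag than in the EV inputs (113 and 94.1 against 23.1 and 16.9 CPM for *Gdf15*), *Klf2* dropped to 0.57 (edgeR adjusted p = 0.584), and *Rpl10l*, whose inputs were 292 and 271 CPM in EV and 1029 and 681 CPM in Eif4a2flag, dropped to 0.40 (0.819). *Ddit3*, a stress transcription factor whose inputs were also higher in Eif4a2flag, was not called in the RIP contrast (132 and 65.2 against 42.0 and 31.2 CPM; -1.72 ± 0.57, edgeR adjusted p = 0.0658) and was called lower less input (-3.21, edgeR adjusted p = 0.0339). limma voom with 1 weight per group called 0 by this contrast in either direction, and its unadjusted p was under 0.05 for 1901 on the higher and 243 on the lower side.

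The side on which the libraries left input is given as a description. The 4676 were kept for their RIP EV reads, the calls rest on RIP EV levels, and RIP EV had the wider spread. The counts that follow are thus not independent of that choice. Of the 338 called higher among the 4676, 293 had both RIP EV libraries below both EV inputs, and 201 had both RIP Eif4a2flag libraries above both Eif4a2flag inputs. Of the 576 called lower, 482 had both RIP EV libraries above both EV inputs, and 246 had both RIP Eif4a2flag libraries below both Eif4a2flag inputs. In all 4676, RIP EV lay below the EV inputs for 1204 and above for 1568, and RIP Eif4a2flag below its inputs for 969 and above for 2156.

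The log2 fold change of the 4676 had a rank correlation of 0.35 with mean input level. Being measured required reads in RIP EV, which for rare transcripts favours a low fold change. This correlation and the quartiles of input level below follow in part from that choice. Its rank correlation was 0.19 with the GC content of the longest annotated transcript and 0.06 with that transcript's length. These values are over transcripts of the same 8 libraries and given as descriptions. In the quartile of lowest input level, 193 of 1169 were called lower and 9 higher (median -1.09), and in that of highest input level 163 and 180 (median 0.24). In the quartile of lowest GC content, 227 of 1169 were called lower and 43 higher (median -0.69), and in that of highest GC content 91 and 94 (median -0.02). The classes of transcript that follow hold only members measured in RIP EV, which for rare transcripts favours a low fold change. Protein-coding transcripts had a median of -0.20 over 4548, with 335 called higher and 507 lower. Among lincRNAs 15 of 28 measured were called lower and 0 higher (median -2.33), among antisense transcripts 7 of 12 and 0 (median -3.82), and among processed pseudogenes 6 of 28 and 1 (median -1.44). How far gene copies and overlapping genes share in these classes was not tested.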

How the data were processed

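Per the labels and the study's methods, RNA of anti-Flag immunoprecipitates and inputs was made into QuantSeq 3′ libraries, and STAR (version 2.5.3a) placed the reads on mm10, and HTSeq (version 0.11.2) gave their number per gene. The deposited values are raw counts, which the authors did not normalize. For strand setting and annotation release the entry is "not given in the sources used here". From these counts, the 5 HTSeq summary lines were left out. Of 52550 identifiers, 52403 matched GENCODE M21 (GRCm38). CPM are on gene reads.

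One edgeR (version 4.0.16, R 4.3.3) quasi-likelihood model of the 8 libraries in 4 groups, with TMM factors, gave RIP Eif4a2flag against RIP EV, inputs against each other, and the difference of both; p-values were Benjamini-Hochberg adjusted, with a threshold of 0.05. limma (version 3.58.1) voom with 1 weight per group, DESeq2 (version 1.42.0), other scalings and filters, a replicate block and leaving out each RIP library were alternatives. The fitting code was tested on simulated counts in which all libraries had the same spread and no group lacked reads. That test cannot speak to the calls under the unequal spread and the gaps of RIP EV. Precision follows depth, 2044853 to 11206420 gene reads, and intervals and floors cover counting error only, as reads carry no molecular identifiers.

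The members, the 16 gene lists, the tests and the naming rule were chosen with earlier results of these data known. Named were, of transcripts with at least 10 reads in each RIP EV library and called with groups apart, the 8 largest rises, of which 1 is not reported here, and the 8 largest falls; of those with 0 reads in both, the 8 highest in RIP Eif4a2flag and the 5 highest in input; the RT-qPCR panel of the study with *Rian*, *Malat1*, *Eif4a2* and *Eif4a1*; and the highest and lowest measured member of each list, with its highest member without RIP EV reads. The 9 transcripts called by limma voom were named after their values were seen.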

Additional observations from a re-analysis of the deposited data

How the results depend on the processing

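Calls of the RIP contrast (2664 higher and 587 lower) were 3270 and 1128 with DESeq2 on 8 libraries, 806 higher with DESeq2 on 4, 1155 lower with no filter, 0 and 9 with limma voom and 1 weight per group, and 0 and 0 with edgeR on 4 libraries. Among transcripts with at least 10 reads in each RIP EV library (338 and 576), they were 610 and 1073 with DESeq2 on 8, 382 lower with no filter, 0 and 9 with limma voom, and 0 and 0 with edgeR on 4. The RIP difference less the input difference (2068 and 226) gave 608 lower with DESeq2 on 8, 373 lower with no filter, and 0 and 0 with limma voom. Leaving out each RIP library gave 2050 to 6248 calls higher and 136 to 1955 lower, 112 to 1182 and 135 to 1399 with at least 10 reads, and 0 to 5806 and 0 to 1337 less input; the high counts came without a RIP EV library (replicate 1: 4467 and 1955; replicate 2: 6248 and 1741) and the low ones without a RIP Eif4a2flag library (replicate 1: 2050 and 136; replicate 2: 2180 and 177), and less input both of the latter gave 0 and 0, with 2426 and 252 and with 2487 and 283 at an unadjusted p under 0.05. The lone library of a group is there assumed to vary like the other groups. Same-numbered deviations correlated at 0.12 between the inputs and at -0.03 between the RIP groups. Between input and RIP they correlated at 0.021 in EV and at 0.0047 in Eif4a2flag. The counts thus showed little pairing by replicate number, but such correlations cannot tell whether samples were paired in the experiment. With the replicate number as a block, the counts were 2438 and 426, 261 and 422, and 1604 and 134. Among the transcripts named by the rule, only for *Nanog*, not called, did an alternative reverse the direction with a call (1.17 without RIP EV replicate 2; over all libraries left out, -0.61 to 1.17). On a CPM total without mitochondrial genes and *Gm42418*, the median log2 ratio of means of the 4676 went from 0.05 to -0.13. With no filter and with library size alone, calls higher were 51.8% and 52.7% of the calls with at least 10 reads, against 37.0%. The cause of these moves was not tested.

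Transcripts at 0 reads in RIP EV have no measured background, and the sizes given rest on 2 RIP EV libraries that lack reads for 43.4% and 23.7% of the transcripts.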
